A study of Homo sapiens with 6 samples.

Results

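The genes described here build and run the mitotic machine of PANC1 cells, a human pancreatic ductal carcinoma line, and their RNA was compared between vehicle and gemcitabine. The 49 members were taken by name from the roles they play: the transcription factor FOXM1, mitotic kinases, the chromosomal passenger complex, the spindle checkpoint, the anaphase machinery, centromere and kinetochore proteins, kinesins, spindle assembly factors, cytokinesis factors, and condensin with other proteins of chromosome structure. All 49 were found among the 20461 genes of the deposited table, and all 49 were among the 14854 genes that held enough fragments to be tested. Gemcitabine is a deoxycytidine analogue that stops DNA synthesis once it is built into DNA. Cells of both groups were grown for 24 h before treatment. One group received 50 nM gemcitabine for 48 h, and the vehicle group received 0.1% DMSO. RNA was sequenced from 2 biological replicates of each group. DNaseI-seq, which maps open chromatin, was made from 1 library of each group. All libraries came from this single line.

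Genes of mitosis are transcribed mainly late in the cell cycle, so that their RNA builds up before chromosomes condense. Their promoters often carry a short element called the cell cycle genes homology region (CHR), and many carry CCAAT boxes bound by the factor NF-Y. In resting or arrested cells the DREAM complex sits on the CHR and holds these genes down, and in dividing cells the same MuvB core joins MYBL2 and FOXM1 to drive them. In RNA from whole cultures, a lower share of cells in G2 and mitosis and less RNA in each such cell cannot be told apart.

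Of the 49 genes, 7 rose and 15 fell under gemcitabine, and 27 did not pass the test. The 7 genes that rose were NEK2, SPC25, SGO1, KIF18A, AURKB, TTK and ESPL1. The 15 that fell were MKI67, PLK1, CENPF, NCAPD2, PTTG1, KIF20A, ASPM, CENPE, CDC20, BUB1B, AURKA, SMC2, MAD2L1, SMC4 and BUB1. A gene rose or fell here when its adjusted p was under 0.05 in the quasi-likelihood test of edgeR, after Benjamini-Hochberg adjustment over all 14854 genes. Over all of those genes, 18.5% rose and 20.0% fell, so the members' 7 and 15 are to be read against a background of 38.5% of genes changed. The median log2 fold change of the members was -0.02, beside 0.01 over all genes tested. No rise reached 1.5-fold, the largest being 0.40 on the log2 scale. Of the falls, MKI67, PLK1 and CENPF passed 1.5-fold, and 33 of the 49 genes stayed within 1.2-fold either way. Scaling by library totals instead of TMM, which raised the median of all genes tested to 0.12, gave 16 members that rose and 11 that fell. Of all 14854 genes, 6051 then passed in either direction. No member that passed in either direction turned around under that scaling, and SMC2, MAD2L1, SMC4 and BUB1 then no longer passed. In DESeq2, where 3865 of the 14854 genes passed in either direction, 4 members rose and 14 fell. The rises of TTK (DESeq2 adjusted p = 0.059), SGO1 (0.099) and ESPL1 (0.16) and the fall of BUB1 (0.11) did not pass there.

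The promoters of the members that moved furthest show what these genes share on the DNA side. The 4 sequences below are those of the 2 genes with the largest falls and the 2 with the largest rises. Each runs 5′ to 3′ on the gene's own strand, from 250 bases before to 10 bases after the transcription start, in RefSeq's GRCh38.p14 assembly. Capitals mark CHR letters (TTTGAA or TTCGAA) and CCAAT boxes, read on either strand, so that a box on the other strand appears as ATTGG.
MKI67, chr10:128126414-128126673, minus strand: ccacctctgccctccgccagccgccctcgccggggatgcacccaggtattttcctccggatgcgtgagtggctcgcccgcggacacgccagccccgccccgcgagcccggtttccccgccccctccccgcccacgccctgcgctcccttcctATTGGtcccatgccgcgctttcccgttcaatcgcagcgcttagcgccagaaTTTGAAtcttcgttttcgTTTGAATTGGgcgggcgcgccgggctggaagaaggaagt
PLK1, chr16:23678639-23678898, plus strand: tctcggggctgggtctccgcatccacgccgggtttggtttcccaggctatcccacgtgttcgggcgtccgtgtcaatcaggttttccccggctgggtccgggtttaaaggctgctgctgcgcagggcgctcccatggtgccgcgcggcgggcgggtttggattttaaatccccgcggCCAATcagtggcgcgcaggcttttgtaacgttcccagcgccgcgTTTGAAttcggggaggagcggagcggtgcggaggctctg
NEK2, chr1:211675612-211675871, minus strand: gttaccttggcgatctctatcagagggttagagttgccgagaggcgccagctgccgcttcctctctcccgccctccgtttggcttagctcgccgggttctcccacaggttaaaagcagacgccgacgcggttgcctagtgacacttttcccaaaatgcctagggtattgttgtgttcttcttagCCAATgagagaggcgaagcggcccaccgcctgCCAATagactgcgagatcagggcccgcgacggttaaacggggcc
SPC25, chr2:168890421-168890680, minus strand: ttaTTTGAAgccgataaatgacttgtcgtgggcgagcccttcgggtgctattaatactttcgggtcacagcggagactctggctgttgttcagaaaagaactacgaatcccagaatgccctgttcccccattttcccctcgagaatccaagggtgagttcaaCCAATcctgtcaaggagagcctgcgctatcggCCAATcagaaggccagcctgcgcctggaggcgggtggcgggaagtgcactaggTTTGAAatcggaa
MKI67 carried CHR letters 47 and 29 bases before its start, and the nearer one overlapped a reversed CCAAT box. PLK1 carried a CHR 29 bases before its start and a CCAAT box at 73 bases. SPC25 had CCAAT boxes 88 and 56 bases upstream and CHR letters at 247 and 3 bases. NEK2 had CCAAT boxes 66 and 34 bases before the start and no CHR letters in this window. CCAAT boxes were thus present in all 4 promoters, and CHR letters in both genes that fell and in 1 of the 2 that rose.

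A RefSeq promoter of 300 bases, from 250 before to 50 after the start, was given for 41 of the 49 members. FOXM1, AURKA, BIRC5, BUB3, TTK, UBE2C, TPX2 and RACGAP1 had no entry. CHR letters occurred on either strand in 33 of the 41 promoters (80.5%), against 11.7% of the 11460 promoters of tested genes and 16.6% of all 27305 promoters. CCAAT occurred on either strand in 32 of 41 (78.0%), against 36.4% of the promoters of tested genes and 35.7% of all promoters. Both elements were found in 26 of the 41. The letters of an E2F site (TTTCCCGC, TTTGGCGC, TTTGCCGC or TTTCGCGC, either strand) occurred in 2 of 41, or 4.88%, beside 5.07% of the promoters of tested genes and 3.33% of all promoters. CHR letters lay close to the start: 30 of the 41 promoters (73.2%) held them between 100 bases before and 50 after it, against 4.61% of the promoters of tested genes. Among the genes that fell, 11 of the 14 with a promoter carried CHR letters, and among those that rose, 4 of 6 did. CCAAT was present in 10 of 14 and in 6 of 6. A match of letters is a description of the DNA and no evidence of binding in these cells.

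**Figure D1:**
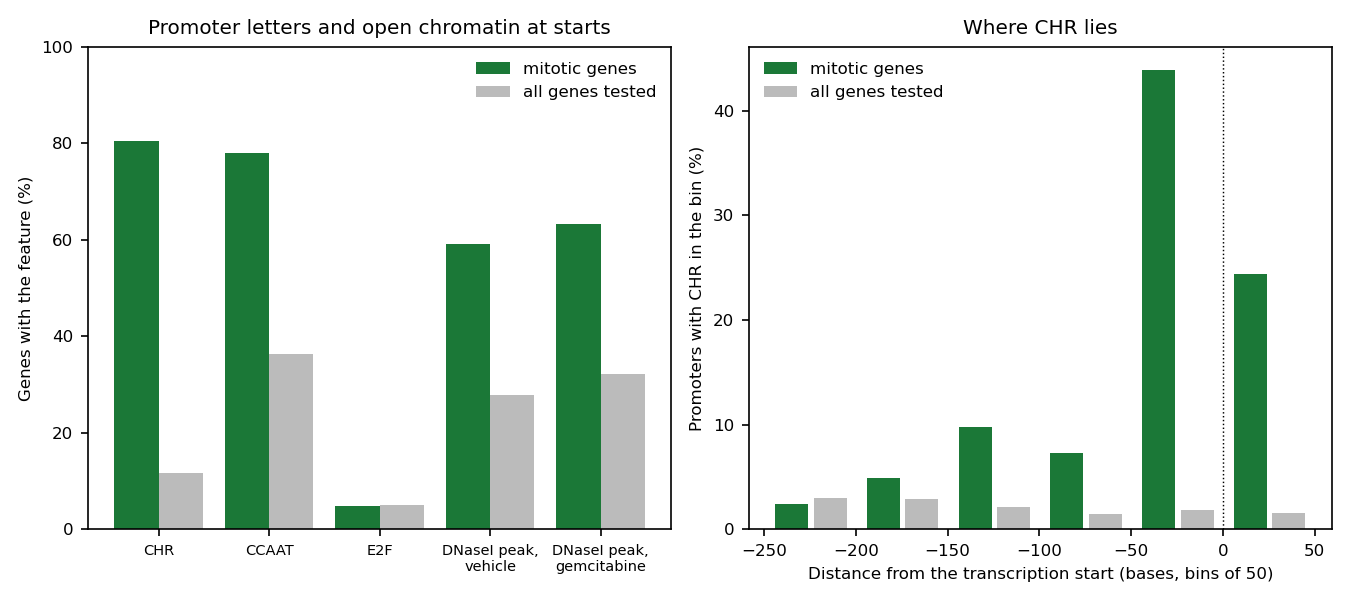
Left, share of genes (%) with CHR, CCAAT or E2F letters in the 300-base promoter and with a DNaseI peak within 1000 bases of a start, for the mitotic genes (green) and all genes tested (grey). Right, share of promoters (%) with CHR letters in each bin of 50 bases around the start. CHR letters were in 43.9% of the mitotic promoters in the 50 bases just before the start, against 1.79% of the promoters of tested genes.

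The other 12 members that passed the test and carry CHR letters are shown by 30 bases around the CHR nearest to the start, so that the flanks can be compared between genes that fell and genes that rose. The first 9 fell and the last 3 rose, and capitals mark the CHR, which reads TTCAAA where it lies on the other strand.
CENPF: ccggtggcggctgcgggcagTTTGAAttag
NCAPD2: cagccgttgagaTTTGAActcggtatttgt
ASPM: cggatgcaatcaTTCAAAtgaagcgccgcc
CDC20: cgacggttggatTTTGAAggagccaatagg
BUB1B: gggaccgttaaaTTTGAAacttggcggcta
SMC2: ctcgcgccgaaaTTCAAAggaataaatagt
MAD2L1: tgcgtcgttactTTTGAAacgcttggcggg
SMC4: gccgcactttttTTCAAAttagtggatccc
BUB1: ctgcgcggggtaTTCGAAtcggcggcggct
ESPL1: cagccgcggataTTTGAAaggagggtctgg
KIF18A: aagtggcttgggTTTGAAtattgtggttga
SGO1: gaggcggaaaatTTCGAAtgtggcggcggt
The form TTTGAA was the most frequent in both directions of change. TTCGAA was seen in BUB1, which fell, and in SGO1, which rose. The CHR shown for CENPF begins 41 bases after the start and that of NCAPD2 lies 145 bases before it, whereas those of SGO1 and SMC2 lie 3 bases before it.

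Depth was similar within each group. The vehicle libraries held 15153593 and 15766237 fragments assigned to genes and the gemcitabine libraries 13194533 and 13275457. A count of 3 fragments, the least treated as detected, equals 0.190 to 0.227 CPM (counts scaled to a common library size). Every member lay far above that floor, with 297 to 13665 fragments in each library. Levels are given below as CPM scaled by TMM normalization, and replicates are numbered as the deposited table numbers its libraries. The keratins KRT8 and KRT18 of the carcinoma line were abundant, at 709 CPM or more for KRT8, while EPCAM was at 3.30 to 5.51 CPM and KRT19 at 2.96 to 6.77 CPM. Of the 7 markers of other cell types, the endothelial CDH5, the erythroid HBB and the hepatic ALB were below the test's minimum, PECAM1 could not be matched, and PTPRC, the leukocyte marker, reached 0.131 to 0.649 CPM. CD68 was at 9.15 and 10.1 CPM in vehicle and 17.1 and 19.8 CPM in gemcitabine, and COL1A1, a fibroblast collagen, was at 4087 to 4496 CPM. Their part in the results was not tested.

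**Figure D2:**
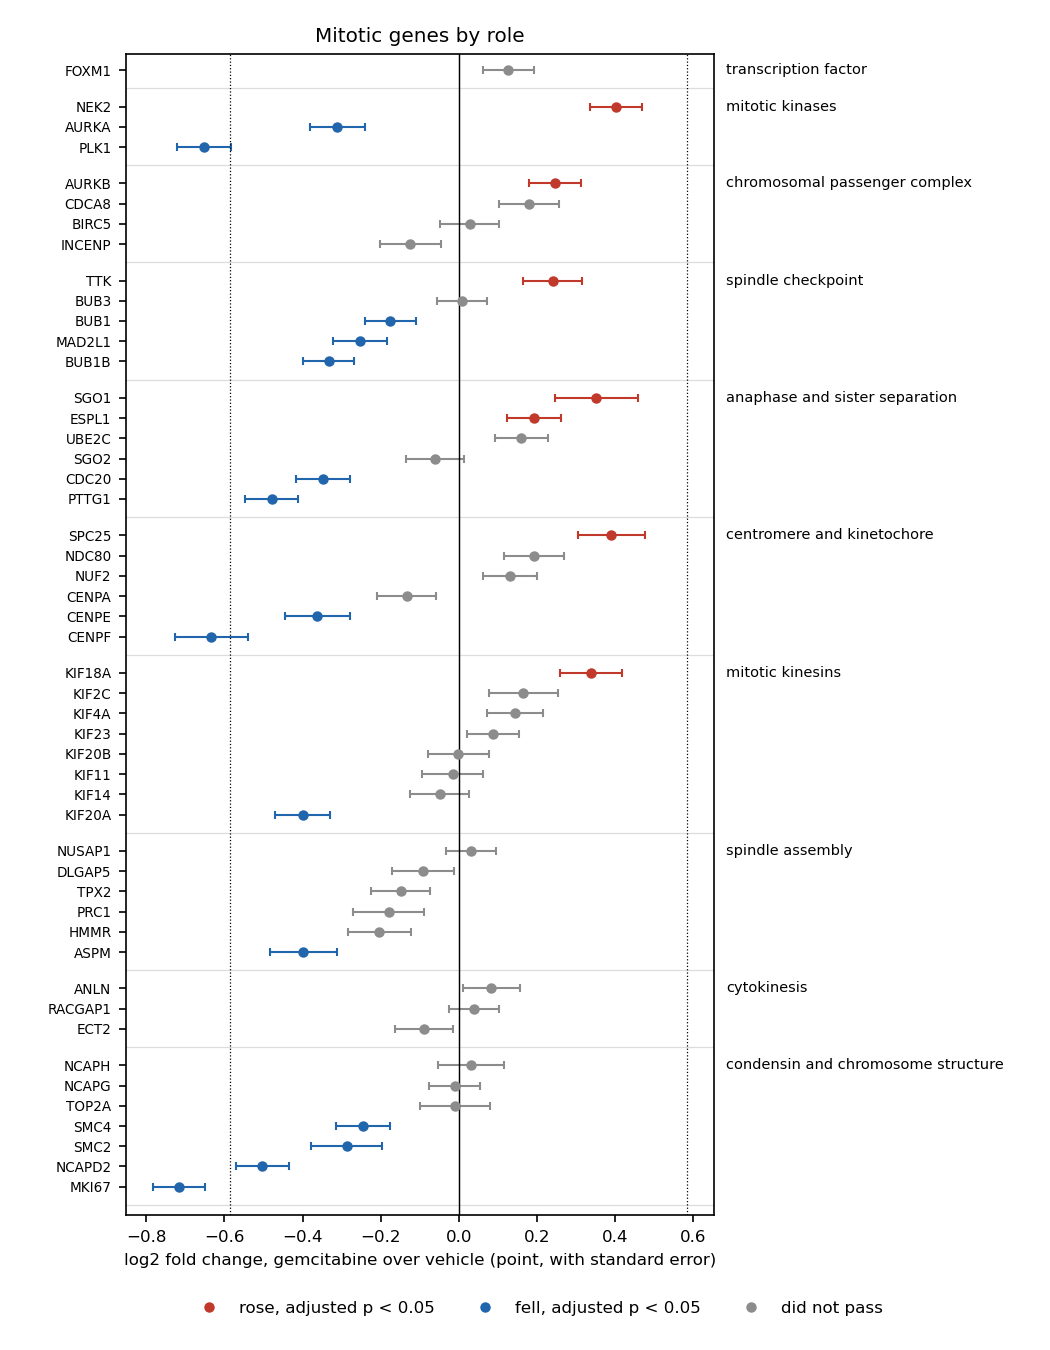
Log2 fold change of gemcitabine over vehicle (x axis) for each of the 49 genes, grouped by role, with the standard error of the edgeR fit as bars. Red points rose, blue points fell and grey points did not pass, and the dotted lines mark 1.5-fold in either direction. MKI67, PLK1 and CENPF lie beyond the left line, at -0.72, -0.65 and -0.63, and no gene lies beyond the right one.

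FOXM1, the transcription factor that turns on much of this set, was at 305 and 295 CPM in vehicle and at 329 and 327 CPM in gemcitabine. Both gemcitabine libraries were above both vehicle libraries, but the log2 fold change of 0.13 ± 0.06 (SE, n = 2 and 2) did not pass (edgeR adjusted p = 0.14). With library totals in place of TMM the log2 fold change was 0.24 and passed (edgeR adjusted p = 0.0063).

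The mitotic kinases moved apart. PLK1 (Polo-like kinase 1, chr16:23688977-23701688, hg19), which drives mitotic entry and spindle formation, was at 274 and 250 CPM in vehicle and at 166 and 167 CPM in gemcitabine. The groups were well separated, and the log2 fold change was -0.65 ± 0.07 (SE, n = 2 and 2; edgeR adjusted p = 5.4e-06). AURKA (Aurora A), the centrosomal kinase that activates PLK1, was at 177 and 173 CPM in vehicle and at 134 and 148 CPM in gemcitabine. It fell by 0.31 on the log2 scale (SE 0.07, edgeR adjusted p = 0.0028). NEK2 (chr1:211831999-211848972, hg19), the kinase that loosens the link between the centrosomes, went the other way. Its level was 73.2 and 73.9 CPM in vehicle and 98.0 and 96.4 CPM in gemcitabine, and the replicates of each group were nearly equal. It rose by 0.40 ± 0.07 (edgeR adjusted p = 0.00028), the largest rise of the members.

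The chromosomal passenger complex corrects faulty kinetochore attachments and later acts in cytokinesis. Its kinase AURKB (Aurora B) was at 104 and 99.4 CPM in vehicle and at 122 and 119 CPM in gemcitabine, with no overlap, and rose by 0.25 ± 0.07 (edgeR adjusted p = 0.0089). The other members did not pass: borealin (CDCA8) had a log2 fold change of 0.18, survivin (BIRC5) 0.03 and the scaffold INCENP -0.12. The Aurora kinases thus differed in direction, AURKA lower and AURKB higher. Both kept that direction when either vehicle library was left out, but neither then passed.

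In the spindle checkpoint, which delays anaphase until every kinetochore is attached, 3 of 5 genes fell and 1 rose. BUB1B (BubR1) was at 188 and 192 CPM in vehicle and 153 and 148 CPM in gemcitabine and fell by 0.33 on the log2 scale (edgeR adjusted p = 0.00099). MAD2L1 (MAD2), a part of the inhibitor of the anaphase-promoting complex, fell by 0.25 (edgeR adjusted p = 0.0094), and the kinase BUB1 fell by 0.18 (edgeR adjusted p = 0.045). TTK (MPS1), the kinase at the head of the checkpoint, was at 77.5 and 85.8 CPM in vehicle and 92.4 and 101 CPM in gemcitabine. It rose by 0.24 ± 0.08 (edgeR adjusted p = 0.021). BUB3, the adaptor that brings BUB1 and BUB1B to kinetochores, was at 322 and 328 CPM in vehicle and 329 and 326 CPM in gemcitabine, and its log2 fold change was 0.01 ± 0.06. BUB1B overlaps PAK6 and a read-through transcript of both genes, and some of its deposited counts were fractional, so its count may include shared fragments.

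The anaphase genes divided evenly. PTTG1 (securin, chr5:159848862-159855746, hg19), which holds separase inactive, was at 130 and 122 CPM in vehicle and 88.2 and 92.4 CPM in gemcitabine. It fell by 0.48 ± 0.07 (edgeR adjusted p = 7.8e-05). Related retrocopies of PTTG1 exist, so its count is uncertain to the extent that reads were shared with them. CDC20, which activates the anaphase-promoting complex, was at 159 and 146 CPM in vehicle and 118 and 121 CPM in gemcitabine, and fell by 0.35 (edgeR adjusted p = 0.0011). ESPL1 (separase), the protease that cuts cohesin and is held back by securin, was at 63.7 and 65.8 CPM in vehicle and 73.4 and 74.5 CPM in gemcitabine, and rose by 0.19 ± 0.07 (edgeR adjusted p = 0.042). SGO1 (shugoshin 1), which shields centromeric cohesin, was the least abundant member, at 21.6 and 19.5 CPM in vehicle and 24.6 and 27.8 CPM in gemcitabine. It rose by 0.35 ± 0.11 (edgeR adjusted p = 0.016), with the largest standard error of the 49 genes. Its paralogue SGO2 had a log2 fold change of -0.06 and the ubiquitin-conjugating enzyme UBE2C one of 0.16, and neither passed. Securin and separase, inhibitor and protease of a single complex, thus moved in opposite directions, though the rise of separase did not pass when either vehicle library was left out.

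At the centromere and kinetochore, CENPF (chr1:214776528-214837917, hg19), a large coiled-coil protein of the outer kinetochore, was at 439 and 463 CPM in vehicle. In gemcitabine it was at 255 and 326 CPM. Both treated libraries were below both controls, though they differed from each other, and the log2 fold change was -0.63 ± 0.09 (SE, n = 2 and 2; edgeR adjusted p = 9.6e-05). CENPE, a kinesin-like motor that carries chromosomes to the metaphase plate, was at 113 and 121 CPM in vehicle and 82.8 and 99.3 CPM in gemcitabine and fell by 0.36 (edgeR adjusted p = 0.0031), although limma on log2(FPKM + 1) gave the opposite sign, at 0.085. SPC25, NDC80 and NUF2 are subunits of the NDC80 complex, which grips microtubule ends. SPC25 was at 29.4 and 30.1 CPM in vehicle and 37.9 and 40.2 CPM in gemcitabine and rose by 0.39 ± 0.09 (edgeR adjusted p = 0.0024). For NDC80 the log2 fold change was 0.19 (edgeR adjusted p = 0.063) and for NUF2 it was 0.13 (edgeR adjusted p = 0.15), and in both genes the gemcitabine libraries were above the vehicle libraries. CENPA, the histone variant that marks the centromere, was at 57.0 and 57.1 CPM in vehicle and 50.6 and 53.4 CPM in gemcitabine. Its log2 fold change of -0.13 did not pass (edgeR adjusted p = 0.17), and it overlaps SLC35F6 and had fractional counts in every library.

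**Figure D3:**
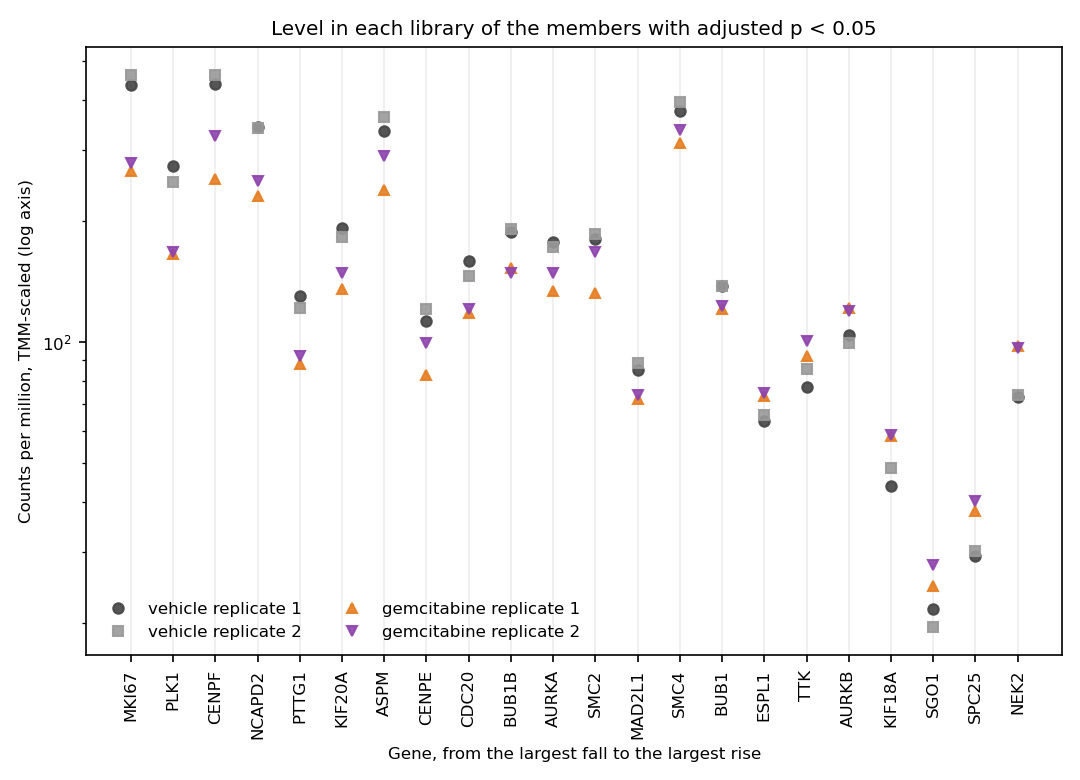
CPM scaled by TMM (log axis) in each of the 4 libraries for the 22 genes that passed the test, ordered from the largest fall to the largest rise. In every one of the 22 genes both gemcitabine libraries lie on the same side of both vehicle libraries. The genes were chosen by a test on these same libraries, so this adds no support. Over all genes tested, 35.0% were higher and 34.7% lower in this way. CENPF, ASPM, CENPE and SMC2 show the widest gaps between the gemcitabine replicates.

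Of the 8 kinesins, 1 fell, 1 rose and 6 did not pass. KIF20A (MKLP2), which moves the passenger complex to the central spindle, was at 192 and 183 CPM in vehicle and 135 and 149 CPM in gemcitabine, and fell by 0.40 ± 0.07 (edgeR adjusted p = 0.00045). KIF18A, which damps the swings of aligned chromosomes, was at 43.9 and 48.7 CPM in vehicle and 58.4 and 58.7 CPM in gemcitabine, and rose by 0.34 ± 0.08 (edgeR adjusted p = 0.0036). The spindle motor KIF11 (Eg5) had a log2 fold change of -0.02, and KIF14 and KIF20B had -0.05 and -0.00083. The depolymerase KIF2C had 0.16, the chromokinesin KIF4A 0.14 and the midzone motor KIF23 0.09.

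Among 6 spindle assembly genes only ASPM passed. ASPM, which focuses spindle poles, was at 334 and 364 CPM in vehicle and 240 and 290 CPM in gemcitabine and fell by 0.40 ± 0.09 (edgeR adjusted p = 0.0019). The log2 fold changes of HMMR (-0.20), PRC1 (-0.18), TPX2 (-0.15), DLGAP5 (-0.09) and NUSAP1 (0.03) did not pass. None of the 3 cytokinesis genes passed in edgeR either, with ANLN (anillin) at 0.08, RACGAP1 at 0.04 and ECT2 at -0.09. The authors' quantification of ECT2 was flagged as failed. Its log2 fold change given here rests on counts, but its flagged FPKM were kept in the FPKM comparisons and limma fits.

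Of the 7 genes of condensin and chromosome structure, 4 fell and none rose, where 20.0% of all genes tested fell and 18.5% rose. The roles differ in size, and 2 of 3 mitotic kinases and 3 of 5 checkpoint genes also fell. MKI67 (Ki-67, chr10:129894923-129924687, hg19), the coat protein of mitotic chromosomes and the usual marker of dividing cells, was at 435 and 461 CPM in vehicle and 266 and 279 CPM in gemcitabine. This was the largest change of the 49 genes, a log2 fold change of -0.72 ± 0.07 (SE, n = 2 and 2; edgeR adjusted p = 2.0e-06), or 39.1% less in the mean. NCAPD2, a condensin I subunit, was at 343 and 342 CPM in vehicle and 232 and 252 CPM in gemcitabine, and fell by 0.50 ± 0.07 (edgeR adjusted p = 4.6e-05). The ATPase pair SMC2 and SMC4, shared by condensin I and II, fell by 0.29 (edgeR adjusted p = 0.021) and 0.25 (edgeR adjusted p = 0.011). The other condensin I subunits did not pass, with log2 fold changes of -0.01 for NCAPG and 0.03 for NCAPH. TOP2A (topoisomerase II alpha), which untangles sister chromatids, was at 864 and 897 CPM in vehicle and 773 and 977 CPM in gemcitabine. The gemcitabine replicates lay on either side of the controls, so the value of -0.01 ± 0.09 rests on libraries that disagreed.

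The study's thresholds were adjusted p under 0.05, over 1.5-fold, at least 0.1 FPKM in a condition and a difference of 1 FPKM or more. With the adjusted p and fold of edgeR in place of Cuffdiff's, MKI67, PLK1 and CENPF were called lower. In the deposited FPKM, the log2 ratio of the means was -0.63 for MKI67, -0.50 for PLK1 and -0.43 for CENPF. Only MKI67 was beyond 1.5-fold there (0.58 on the log2 scale). Over all genes tested 4.43% were called lower and 5.69% higher. No member was called higher by edgeR, DESeq2 or limma. Even at an unadjusted p under 0.05, edgeR gave 0 members higher by over 1.5-fold.

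Whether groups overlapped gives a view without a test, though the CPM remain scaled by TMM. In CPM, 15 members were higher in both gemcitabine libraries than in both vehicle libraries (35.0% of all genes tested were), 19 were lower in both (34.7% of all genes) and 15 overlapped. FPKM, the authors' own estimate per transcript length, gave 19 higher, against 41.8% of all genes, 10 lower, against 20.3%, and 20 overlapping. The FPKM values of the table thus lay higher under gemcitabine as a whole, with a median log2 ratio of 0.14 over tested genes, and 0.09 over the members. All 10 genes lower in FPKM were among the 15 that fell, and the other 5 overlapped there: CENPE, BUB1B, AURKA, SMC2 and SMC4. Of the 7 that rose, 6 were higher in both FPKM values, and ESPL1 overlapped.

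FPKM also allows levels to be compared between genes. The members were well expressed, with a median of 56.6 FPKM in vehicle beside 11.9 FPKM over all genes tested. The highest were SMC4 (247 and 257 FPKM in vehicle) and PTTG1 (266 and 232 FPKM), whose libraries overlapped, and the lowest was SGO1 (11.0 and 10.3 FPKM). The genes that fell had a median level of 71.1 FPKM in vehicle, those that rose 29.3 FPKM and those that did not pass 51.7 FPKM. MKI67 stood at 57.6 and 55.7 FPKM in vehicle and 34.8 and 38.6 FPKM in gemcitabine, PLK1 at 169 and 167 against 120 and 117 FPKM, and NEK2 at 40.2 and 38.1 against 55.4 and 51.2 FPKM.

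**Figure D4:**
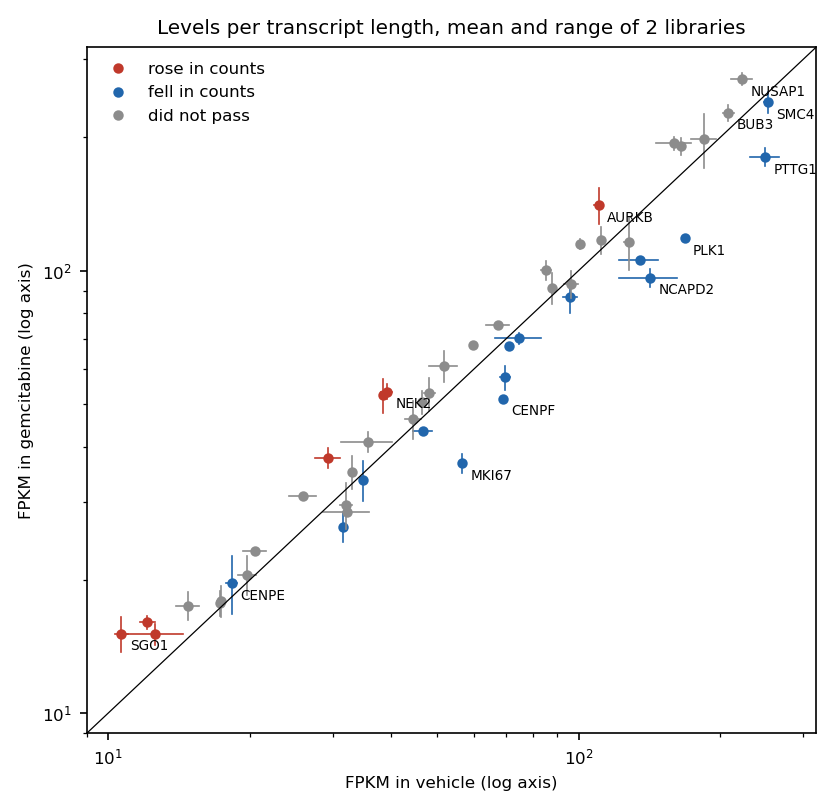
Mean FPKM in vehicle (x) and gemcitabine (y) of each of the 49 genes, both on log axes, with lines for the range of the 2 libraries and the diagonal for equal levels. MKI67, NCAPD2, PLK1 and PTTG1 lie furthest below the diagonal, and NEK2, SGO1 and AURKB lie above it.

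The call depended on the library for the smaller changes. Leaving out a library left 1 in its group. Fewer of all genes then passed without a vehicle library, and more without a gemcitabine library, and the members moved the same way. How many members passed in these fits is therefore not read as a result about the members. The falls of MKI67, PLK1, CENPF, NCAPD2, PTTG1 and KIF20A and the rise of NEK2 passed whichever library was left out, and also in DESeq2 and under the other count-based alternatives. The size of CENPF ran from -0.82 without gemcitabine replicate 2 to -0.47 without gemcitabine replicate 1, where it was under 1.5-fold. PLK1 was at -0.58 without vehicle replicate 1, just under 1.5-fold. TOP2A was at 0.15 without gemcitabine replicate 1 (edgeR adjusted p = 0.018) and at -0.19 without gemcitabine replicate 2 (edgeR adjusted p = 0.0031), so its direction was set by which treated library was used.

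Some further losses of single genes followed the same pattern. Without vehicle replicate 1 the rise of SPC25 was 0.38 (edgeR adjusted p = 0.059), that of SGO1 0.43 (edgeR adjusted p = 0.070), that of AURKB 0.29 (edgeR adjusted p = 0.070) and that of KIF18A 0.27 (edgeR adjusted p = 0.10). TTK was then at 0.18 and ESPL1 at 0.18, and CDC20, AURKA, SMC2, MAD2L1, SMC4 and BUB1 were no longer called, at -0.28, -0.29, -0.30, -0.27, -0.28 and -0.16. Without vehicle replicate 2, TTK, ESPL1, AURKB and SGO1 (0.32, 0.22, 0.22 and 0.29) lost their calls. So did ASPM, CENPE, BUB1B, AURKA, SMC2, MAD2L1, SMC4 and BUB1 (-0.33, -0.31, -0.31, -0.32, -0.26, -0.21, -0.20 and -0.17). SMC2 was also lost without gemcitabine replicate 1 (-0.12) and SGO1 without gemcitabine replicate 2 (0.26, edgeR adjusted p = 0.055). Each of these genes kept its direction.

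Transcript length moved with the fold change. Across the 49 members Spearman's rho between the log2 fold change and the length of the canonical transcript was -0.32, and across 14445 tested genes with a length it was -0.11. The points share the same 4 libraries, so this is a description. Length also went with the difference between replicates: among members rho was 0.43 for gemcitabine replicate 2 over 1 and 0.59 for vehicle replicate 2 over 1, where all genes gave 0.20 and 0.18. The genes that fell had a median length of 4825 bases, with 7 of 15 over 5000 bases, and those that rose had 2966 bases, with 1 of 7 over 5000. Short transcripts were also among those that fell, such as PTTG1 at 715 bases and PLK1 at 2160 bases. The part of length in these changes was not tested.

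**Figure D5:**
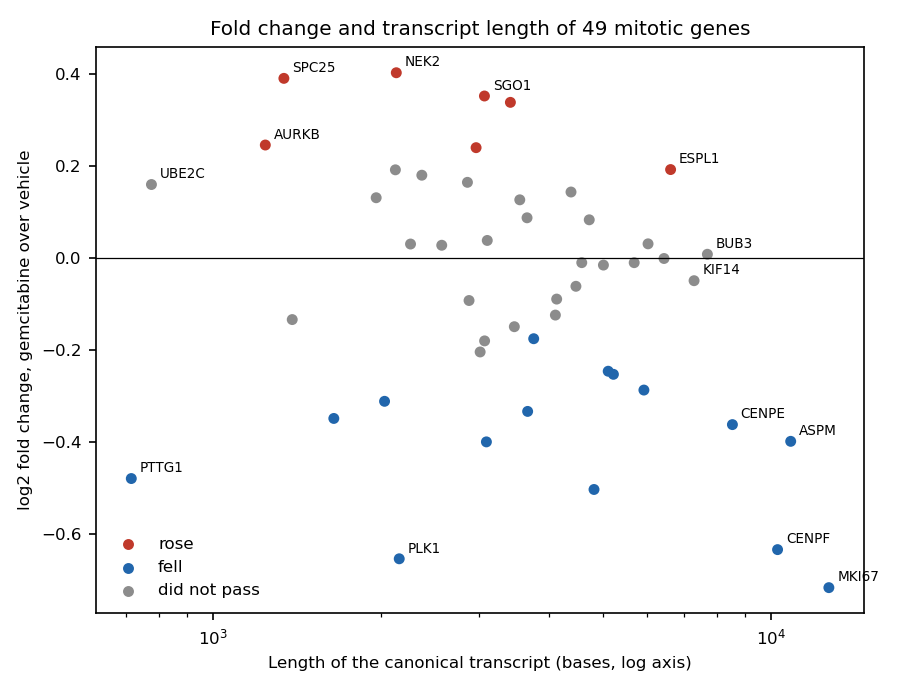
Log2 fold change of gemcitabine over vehicle against the length of the canonical transcript (bases, log axis) for the 49 genes, coloured red for rose, blue for fell and grey for not passed. MKI67, CENPF and ASPM, at 12716, 10290 and 10863 bases, fell, while SPC25, NEK2 and AURKB, at 1342, 2134 and 1243 bases, rose, and PTTG1 and PLK1 are short genes that fell.

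Open chromatin was read from the DNaseI peak lists, with 9606 peaks in vehicle and 10695 in gemcitabine. With 1 library a condition there is no replicate check and no test. A peak within 1000 bases of an annotated start (hg19) was found for 29 of 49 members in vehicle, or 59.2% (95% Wilson interval 45.2% to 71.8%, counting error only), where 27.8% of tested genes had one. In gemcitabine it was 31 of 49, or 63.3% (49.3% to 75.3%), against 32.2%. Among genes of at least 10 FPKM in vehicle the shares were 38.3% and 43.1%. A peak in either library was found for 36 members, where 39.0% of tested genes had one. Both libraries had a peak at 24 members (background 21.0%), 7 had one in gemcitabine only (11.2%) and 5 in vehicle only (6.78%).

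Genes of both directions had peaks. Of the 15 that fell, 8 had a peak in vehicle and 8 in gemcitabine, and of the 7 that rose it was 5 and 5. MKI67, PLK1 and PTTG1, among the largest falls, had no listed peak at a start in either library, and neither did FOXM1 or SPC25. CENPF had a peak in both, at chr1:214775967-214776897 with a score of 80.9 in vehicle and chr1:214775917-214777068 with 100.2 in gemcitabine. NEK2 had one of score 73.3 at chr1:211848803-211849494 in vehicle and one of 84.2 at chr1:211848729-211849618 in gemcitabine. The score is -10 times log10 of the peak caller's p, so it grows with sequencing depth as well as with openness. AURKB had a peak only in gemcitabine, and TTK only in vehicle, with a score of 50.8, close to the lowest score listed.

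Other genes of the same processes were read from lists beside the members. Of 33 other kinetochore and centromere genes, 15 rose and 3 fell, with a median log2 fold change of 0.18. As for every list here, these counts stand beside the 18.5% that rose and the 20.0% that fell over all genes tested. CENPI, a subunit of the inner kinetochore network, was at 35.6 and 37.3 CPM in vehicle and 55.3 and 52.1 CPM in gemcitabine, and rose by 0.56 (edgeR adjusted p = 8.4e-05). CENPQ rose by 0.48 (edgeR adjusted p = 0.0014), and CENPP, of the same network, fell by 0.45 (edgeR adjusted p = 0.023). In the list of 4 genes for mitotic cyclins and CDK1, 1 passed. CDK1, the kinase of mitotic entry, was at 164 and 166 CPM in vehicle and 254 and 271 CPM in gemcitabine, and rose by 0.67 (edgeR adjusted p = 3.2e-06). CCNB1, its cyclin partner, had a log2 fold change of -0.17 (edgeR adjusted p = 0.054), CCNA2 0.13 and CCNB2 -0.03. Of 17 genes of the anaphase-promoting complex and its regulators, 2 rose and 3 fell, the latter being ANAPC10 (-0.49), ANAPC1 (-0.49) and UBE2S (-0.46). None of the 3 condensin II genes passed in edgeR. Of 21 other spindle and cytokinesis genes, 4 rose and 4 fell, led by ARHGAP11A (-0.51), DEPDC1 (-0.37) and CKAP5 (-0.36). The 6 lists of other mitotic genes together held 89 genes, of which 24 rose and 17 fell, the falls being near the share over all genes tested.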

How the data were processed

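Single-end RNA-seq reads were aligned by the authors with TopHat2 2.0.8 and assigned to protein-coding genes of Gencode 15 on hg19, and Cuffdiff 2.0.2 produced the deposited estimated count and FPKM of each gene in each of 4 libraries. DNaseI peaks were called with MACS at a p-value of 1e-05, and the deposited score is -10 times log10 of that p-value. The strand setting of the kit is not given in the sources used here, and 15 of the 49 members overlap another coding gene.

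Estimated counts (fractional for 8 members) were rounded and tested with edgeR 4.0.16 (quasi-likelihood, TMM, genes with at least 10 fragments over 4 libraries, Benjamini-Hochberg adjustment), with gemcitabine against vehicle as the only term. DESeq2 1.42.0, limma 3.58.1 on log2(FPKM + 1), other scaling factors and filters, and leaving out each library were alternatives. The test was tried on simulated counts first. Log2 fold changes are gemcitabine over vehicle, and ± gives the standard error. Named genes were the 8 largest falls and all 7 rises among members that passed. Further members of interest and the 3 largest in each other list were also named. Other genes named were chosen after their values were seen. The members and lists were chosen with earlier results of these data known. Gene positions and starts came from Gencode 44 lifted to GRCh37, and promoters from RefSeq's GRCh38.p14 table. The labels' replicate numbers could not be tied to the library index of the table.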

Additional observations from a re-analysis of the deposited data

How the results depend on the processing

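With DESeq2, where 3865 of 14854 genes passed, 4 members rose and 14 fell, TTK, SGO1, ESPL1 and BUB1 not passing. With library totals in place of TMM, where 6051 of 14854 genes passed, 16 members rose, 11 fell and 1 was called lower. That scaling raised the median of all genes tested to 0.12 and that of the members to 0.094, and 8 members changed sign, none of them past the threshold. In limma on log2(FPKM + 1) and on log2(FPKM + 0.1) without a filter, 0 members rose or fell and 0 were called lower, but 0 of all 17783 genes passed there, so these fits say nothing about the members. The member medians of these fits were 0.085 and 0.088. With genes under 0.1 FPKM left out, 1868 of 14105 genes passed in limma. Among the members it gave 1 rise, 4 falls and 1 called lower, with a median of 0.085. At an adjusted p under 0.01 in edgeR, 4 members rose and 12 fell, with no count made over all genes at that threshold. Without the fold and FPKM criteria, 7 were called higher and 15 lower. CENPE had the opposite sign in the limma fits, at 0.085 with a pseudocount of 1 FPKM, with or without the filter, and 0.088 with 0.1 FPKM. TOP2A was at 0.15 without gemcitabine replicate 1 and at -0.19 without gemcitabine replicate 2. The cause was not tested. Leaving out each library gave 1 to 13 rises, 7 to 22 falls, 2 to 3 genes called lower and medians of -0.14 to 0.011. The arm with a lone library was then assumed to vary like the other. With peaks of score 100 or more, 7 members had one in vehicle and 8 in gemcitabine, and on the gene strand alone CCAAT was in 17 promoters.

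No paired analysis was possible because the library index of the count table cannot be tied to the replicate numbers in the labels. With 2 libraries a group, p-values measure the spread between these cultures only. The standard errors of 0.06 to 0.11 on the log2 scale limit what could pass, and a gene that did not pass is not shown to be equal between the groups.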

Other observations

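Cohesin, the ring that holds sister chromatids together until separase cuts it, was read with its regulators as a list of 11 genes. Of these 7 fell under gemcitabine and 2 rose, where 20.0% and 18.5% of all genes tested did. STAG1, a cohesin subunit, was at 82.0 and 84.9 CPM in vehicle and 40.9 and 43.4 CPM in gemcitabine and fell by 0.99 on the log2 scale (edgeR adjusted p = 2.9e-07). The genes that rose were CDCA5 (sororin), at 0.69, and ESCO2, an acetyltransferase that locks cohesin on replicated DNA, at 0.69. Both act in establishing cohesion, and in both the groups did not overlap.

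RNA of CDKN1A and of genes of the DREAM and MuvB complexes also changed. Their part in the changes of the members was not tested. CDKN1A (p21), the CDK inhibitor, was at 133 and 135 CPM in vehicle and 330 and 327 CPM in gemcitabine and rose by 1.29 (edgeR adjusted p = 1.6e-08). The list of DREAM repressor partners with CDKN1A held 6 genes, of which 4 fell and 1 rose. Over all genes tested 20.0% fell and 18.5% rose, for this list and the next. Among the falls were E2F5 (-0.95) and RBL1 (-0.47), both partners of the repressing DREAM complex, while RBL2 (-0.05) did not pass. In the MuvB list of 6 genes, LIN37 (0.73, from 3.44 to 8.36 CPM over the libraries), LIN54 (0.41) and MYBL2 (0.22) rose and RBBP4 (-0.24) fell. Of 32 DNA replication genes, 3 rose and 11 fell (18.5% and 20.0% over all genes tested), led by the helicase subunits MCM5 (-1.14), MCM6 (-0.84) and MCM3 (-0.72).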
